A study of Mus musculus with 3 samples.

Results

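Gas6 and the genes that act with it in the uptake of dying cells were described across the immune cells of the mouse kidney. The group holds 6 genes, of 32886 in the deposited count table. They were taken as a named list, Gas6, Pros1, Axl, Mertk, Tyro3 and Mfge8, and the list was chosen by Gas6, whose level had been seen to differ between the kidney compartments in these same cells. The values of the 6 genes between medulla and cortex in resident macrophages are therefore given as a description, with no test.

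Efferocytosis is the engulfment of apoptotic cells before they break open. An apoptotic cell shows phosphatidylserine on its surface, and soluble bridging proteins bind that lipid on one side and a receptor of the phagocyte on the other. Gas6 and protein S, the product of Pros1, are the bridging ligands of the TAM receptor tyrosine kinases Tyro3, Axl and Mertk. Both ligands need a vitamin K-dependent carboxylation to bind phosphatidylserine. Mfge8 bridges phosphatidylserine to the integrins that contain the Itgav chain instead, and so runs beside the TAM receptors.

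The cells came from wild-type, untreated male C57BL/6J mice aged 10 weeks, and no group carried a transgene or a deletion. Kidneys were dissected into cortex and the outer and inner parts of the medulla (OM and IM), and CD45+ cells, which are white blood cells, were sorted after a dead-cell stain and sequenced in droplets at 3 facilities (Aachen, Bonn and Hamburg). The deposited table held 20266 cells and 23 clusters named by the authors. The cells of 1 compartment at 1 facility are called a library here, which gave 9 libraries. The facility was used as the replicate (n = 3). Neither the number of mice behind a library nor pooling of animals is given in the sources used here. The facility was a block in the fits, so p-values set a mean difference between compartments against its variation from facility to facility.

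Resident macrophages were the 5367 cells of Macrophage_1, Macrophage_2, Macrophage_3 and Isg+_Macrophage. Their markers summed to between 171.5 and 253.5 UMIs (unique molecular identifiers, the counted RNA molecules) per 10000 UMIs in all 9 libraries, against at most 22.0 in T cells. The libraries differed in depth before any comparison of compartments. The median cell held between 744 and 1270 UMIs in the Aachen libraries and between 2802 and 3505 at Bonn and Hamburg. Values of the Hamburg cells were mostly not whole numbers, and their barcodes carried 1 suffix in all compartments. Barcodes of each Aachen compartment carried 2 suffixes and those of each Bonn compartment 1. Whether an Aachen compartment was sequenced as more than 1 run was not tested. There were 29 barcodes shared between libraries of 1 facility and 196 shared between facilities. Levels are given as CPM, the UMIs of a gene per 1000000 UMIs of the same cells. Among resident macrophages 392 cells had at least 2 UMIs of T or B cell markers, and without them Gas6 was 2.24 higher in medulla on the log2 scale, beside 2.34 with them.

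In the GENCODE annotation of GRCm38, the build of the files, Gas6 spans chr8:13465374-13494490 on the minus strand and overlaps Tmem255b on the opposite strand. Axl spans chr7:25757273-25788705 on the minus strand and overlaps no other gene. Pros1 is on chromosome 16, Mertk and Tyro3 on chromosome 2 and Mfge8 on chromosome 7. Mertk overlaps Gm23172 on its own strand and Gm14011 on the other, and whether this affected its counts was not tested.

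The 250 bases before the RefSeq start of Gas6 and Axl (GRCm38.p6, minus strand, written 5′ to 3′) are shown because this ligand and receptor had the most UMIs of the 6 genes. Capitals mark the GC box (GGGCGG or CCGCCC), the PU.1 core (GAGGAA or TTCCTC) and the TonE core (TGGAAA or TTTCCA), which is the element read by the hypertonicity factor NFAT5. No annotated exon overlaps either window.
Gas6, chr8:13494536-13494785: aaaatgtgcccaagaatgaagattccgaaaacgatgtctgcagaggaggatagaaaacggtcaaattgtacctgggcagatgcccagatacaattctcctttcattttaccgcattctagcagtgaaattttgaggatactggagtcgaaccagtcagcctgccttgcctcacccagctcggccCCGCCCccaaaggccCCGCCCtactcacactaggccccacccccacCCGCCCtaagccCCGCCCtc
Axl, chr7:25788734-25788983: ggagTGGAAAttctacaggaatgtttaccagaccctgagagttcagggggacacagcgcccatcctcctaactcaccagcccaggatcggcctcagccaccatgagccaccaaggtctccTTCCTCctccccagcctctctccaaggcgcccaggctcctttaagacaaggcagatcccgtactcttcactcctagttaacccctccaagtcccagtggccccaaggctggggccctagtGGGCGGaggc
The Gas6 window held 4 GC boxes and neither of the other cores. The Axl window held 1 match of each, and no match in either window overlaps another. A GC box was present in 32.7% of 32851 windows of this length, a PU.1 core in 23.3% and a TonE core in 18.6%. A hypoxia response core (ACGTG), an AP-1 site (TGANTCA) and a pair of IRF half-sites were searched on both strands and were in none of the windows of the 6 genes, while 16.6%, 6.75% and 2.98% of all windows held them. These letters are a description of the sequence and not of binding.

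Across cell types, RNA of Gas6, Axl, Mertk and Pros1 was found mainly in macrophages. Resident macrophages made up 26.5% of the cells and held 81.7% of the 957 Gas6 UMIs, 77.2% of the 4939 Axl UMIs, 66.7% of the 188 Mertk UMIs and 62.5% of the 678.5 Pros1 UMIs. Malat+_Macrophage, a cluster of macrophages with few UMIs per cell, added 8.53% of the Gas6, 8.96% of the Axl and 19.0% of the Mertk UMIs. Mfge8 was spread over the classes, with 31.4% of its 675 UMIs in resident macrophages, 16.8% in T cells and 11.7% in B cells. Tyro3 had 59.3 UMIs in all, of which 62.0% were in T cells and 1 UMI in resident macrophages.

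**Figure D1:**
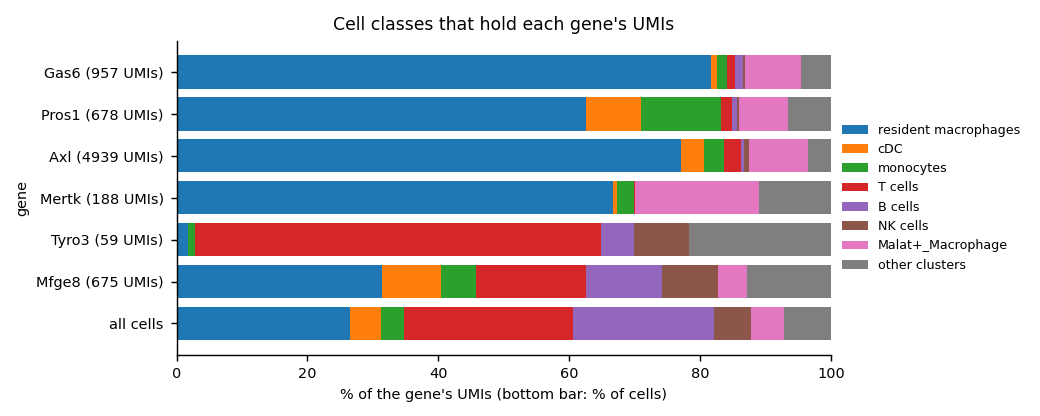
Share of each gene's UMIs (%, x axis) by cell class, pooled over the 9 libraries, with the share of cells in the bottom bar. Resident macrophages held 81.7% of Gas6 UMIs but 26.5% of cells, and Tyro3 is the gene whose bar lies mostly in T cells.

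A UMI of Gas6 was found in 10.7% of the resident macrophages (575 of 5367, Wilson 95% interval 9.91 to 11.6%), at a median of 1574 UMIs per cell. T and B cells served as the background for free RNA. Pooled over libraries, they had a Gas6 UMI in 0.209% of cells, at a deeper median of 2537 UMIs. After every cell was thinned to 500 UMIs the shares were 2.39% and 0.0541%. For Axl the shares were 38.4% in resident macrophages and 1.46% in T and B cells, and 10.7% and 0.314% after thinning. For Pros1 they were 6.69% and 0.177%, and for Mertk 2.20% and 0 of 9594 T and B cells, which allows a share of up to 0.0313% of cells with a UMI. Mfge8 was in 3.78% of resident macrophages and in 1.99% of T and B cells, and in 0.641% and 0.389% after thinning. Among these genes its share was nearest to that of the lymphocytes. Tyro3 was in 0.0186% of resident macrophages and in 0.396% of T and B cells. The thinning left out 222 of 5367 resident macrophages and 349 of 9594 T and B cells with fewer UMIs. The intervals cover counting error only.

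The order of Gas6 levels over the clusters ran from Macrophage_3 downwards. Its level there was 98.5 CPM at Aachen, 134.9 at Bonn and 136.6 at Hamburg (123 ± 21.5, SD, n = 3), and these values did not overlap those of any other cluster measured at more than 1 facility. Malat+_Macrophage followed at 57.5 ± 8.54 CPM, Macrophage_1 at 46.9 ± 26.5, Isg+_Macrophage at 26.4 ± 12.3 and Macrophage_2 at 14.5 ± 5.76, and each of these overlapped its neighbour in the order. Clusters were built from the same cells and Gas6 may have taken part in defining them, so this order is a description. The T, B, NK and dendritic cell clusters and ILC2 (group 2 innate lymphoid cells) were at 8.05 CPM or below on average. A small unnamed cluster, measured at Bonn alone, was at 76.0 CPM.

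Pros1, the other TAM ligand, which also serves as an anticoagulant cofactor in plasma, was spread more evenly over the phagocytes. Macrophage_3 (36.4 ± 16.2 CPM), Malat+_Macrophage (36.2 ± 21.0), Isg+_Macrophage (27.5 ± 23.1), Macrophage_2 (27.1 ± 12.2), Macrophage_1 (22.4 ± 9.64), Monocyte (18.4 ± 10.7) and cDC2 (11.8 ± 4.74) each overlapped the next in the order. Monocytes held 12.2% of Pros1 UMIs and conventional dendritic cells (cDC) 8.48%, against 1.53% and 0.932% of the Gas6 UMIs.

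Among the receptors, Axl, which is known to be carried by macrophages in tissues and to be raised by inflammatory signals, was near one level in all 5 macrophage clusters. Its mean was between 234 ± 70.1 CPM in Macrophage_1 and 317 ± 163 in Malat+_Macrophage, with overlapping facility values throughout. The next cluster in the order, the neutrophils, was at 60.8 ± 56.4, and Monocyte at 42.6 ± 8.22, and both lay below every macrophage value.

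Mertk, the receptor best known for the steady-state clearance of dying cells, was highest in Malat+_Macrophage, at 3.89, 34.4 and 41.0 CPM at Aachen, Bonn and Hamburg. Macrophage_1 had 5.49, 10.5 and 12.2 CPM, so the Aachen value lay among those of the other macrophage clusters and the remaining pair lay above them. Macrophage_2 (5.32 ± 6.48), Isg+_Macrophage (5.67 ± 7.57) and Macrophage_3 (5.27 ± 4.65) could not be told apart. T and B cells held under 1 Mertk UMI in all.

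Tyro3, a TAM receptor known for its part in restraining type 2 immunity, had no UMI in any Aachen library. Its highest mean level, 4.42 ± 5.30 CPM, was in the proliferating cells. In T_cell_1 its level was 5.05 CPM at Bonn and 3.95 at Hamburg, and in ILC2 3.29 and 3.57 CPM. Macrophage_1 and Macrophage_3 had none.

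Mfge8, which codes for a secreted bridging protein also known as lactadherin, had its highest level outside the phagocytes. ILC2 had 35.0, 75.7 and 49.3 CPM at Aachen, Bonn and Hamburg (53.3 ± 20.7), and the lowest of these lay above every facility value of the other clusters, the nearest being 31.4 in Isg+_Macrophage at Bonn. NK_cell_1 was at 20.02 ± 2.65 and Malat+_Macrophage at 21.2 ± 1.47, and the other macrophage clusters were between 10.9 and 15.1 CPM on average.

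**Figure D2:**
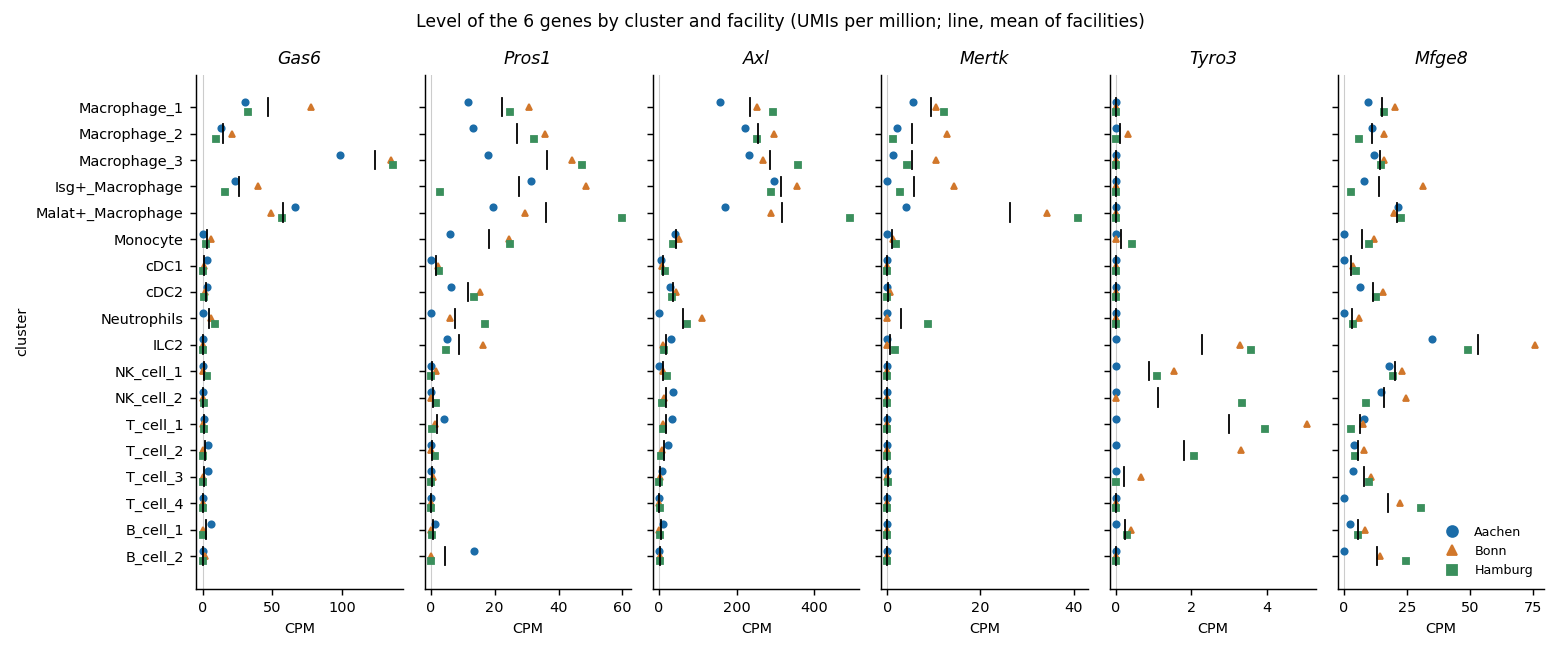
Level (CPM, x axis, a scale for each gene) by cluster (y axis) for the 6 genes. Points are facilities and lines their mean. Gas6 was highest in Macrophage_3 (123 CPM on average), Axl stood at 234 to 317 CPM in the 5 macrophage clusters, and Mfge8 was highest in ILC2 (53.3 CPM).

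For each gene that reached 10 CPM in some cluster, the genes with the most similar profile were listed by Pearson's r of log2(CPM + 1) over the 19 clusters of at least 200 cells, among 11396 genes. The points share libraries, and depth differs between clusters, so r is a description. Nearest to Gas6 were Ccn1 (0.950), Zfp90, Cxcl14, Gna12 and Hs3st3a1 (0.936), of which Ccn1, Zfp90, Cxcl14 and Hs3st3a1 also were highest in Macrophage_3. Nearest to Axl were Creb5 (0.982), C1qc, Fcgr4, Itgb5 and Csf1r (0.962). C1qc codes for a chain of complement C1q and Csf1r for the receptor of the macrophage growth factor. Nearest to Pros1 were Htra2 (0.970), Dock1, Tfe3, Nhlrc3 and Scamp2, and nearest to Mertk Pmp22 (0.939), Matn2, Ms4a14, Ppp1r9a and Arhgap19. Mfge8 had lower values of r, 0.790 for Srprb and 0.729 to 0.787 for Wls, Pomc, Apbb2 and St5.

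Resident macrophages had more Gas6 in the medulla than in the cortex at all 3 facilities. At Aachen the level was 13.2 CPM in cortex, 63.5 in OM and 20.6 in IM, from 10, 114 and 14 UMIs. At Bonn it was 17.0, 95.5 and 98.0 CPM, from 50, 87 and 367 UMIs. At Hamburg it was 11.3, 55.2 and 39.0 CPM, from 10.8, 90.5 and 38.4 UMIs. The 3 cortex values lay between 11.3 and 17.0 CPM and all 6 medullary values above them, the lowest in the Aachen IM. Free RNA at Aachen, read from Gas6 in T and B cells, was also higher in medulla than in cortex, from few UMIs. Its part in the Aachen values was not tested. A fit across all genes, with the facility as a block, put Gas6 2.34 ± 0.28 (SE) higher in medulla than cortex on the log2 scale, at 2.55 ± 0.30 for OM and 2.13 ± 0.30 for IM. In the same comparison 0.644% of 8228 genes were called higher and 0.583% lower, at an adjusted p of 0.05 by edgeR, and nothing is read from this for Gas6. The gene was chosen on this contrast.

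**Figure D3:**
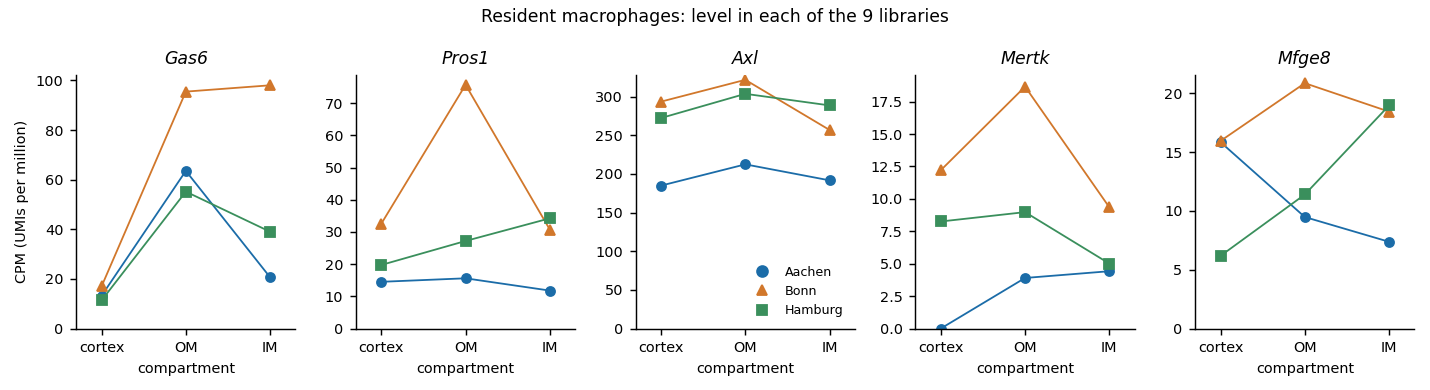
Level (CPM, y axis, a scale for each gene) in resident macrophages of cortex, OM and IM, a line per facility. All 3 cortex values of Gas6 (11.3 to 17.0 CPM) lie below the 6 medullary values. Axl stays between 185 and 322 CPM, and its cortex and medullary values overlap, with OM the highest at each facility.

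The Macrophage_3 cluster was itself unevenly placed. It made up 0, 7.05 and 0% of the resident macrophages of the cortex at Aachen, Bonn and Hamburg, 44.7, 42.9 and 23.0% in the OM and 1.17, 43.2 and 15.4% in the IM. The Aachen IM, where it was rare, was also the medullary library with the lowest Gas6. The Aachen OM had its highest share, and the raw Gas6 level there was 63.5 CPM, against 95.5 and 98.0 CPM in the Bonn OM and IM. With the TMM scaling of the fits this order turned, at 86.1 CPM against 77.0 and 84.0 CPM. The part of the cluster make-up in the Gas6 difference was not tested. With Macrophage_3 left out of the class, Gas6 was still 1.82 higher in medulla on the log2 scale. Within Macrophage_1, both medullary values lay above the cortical one at each facility. They were 48.0 and 22.8 against 11.1 CPM at Aachen, from 39 UMIs over all compartments. At Bonn they were 38.7 and 83.8 against 9.94 CPM, the latter from 1 UMI in 24 cells. At Hamburg they were 42.4 and 34.1 against 16.3 CPM. Within Macrophage_2 the Aachen values of OM and IM (6.63 and 14.5 CPM) lay below that of cortex (18.5), and those of Bonn and Hamburg above it. These orders rest on few Gas6 UMIs, 13 at Aachen, 65 at Bonn and 7.84 at Hamburg over all compartments. Macrophage_3 could be read in the cortex only at Bonn, where 38 cells gave 55.1 CPM against 149.6 in OM and 138.1 in IM.

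**Figure D4:**
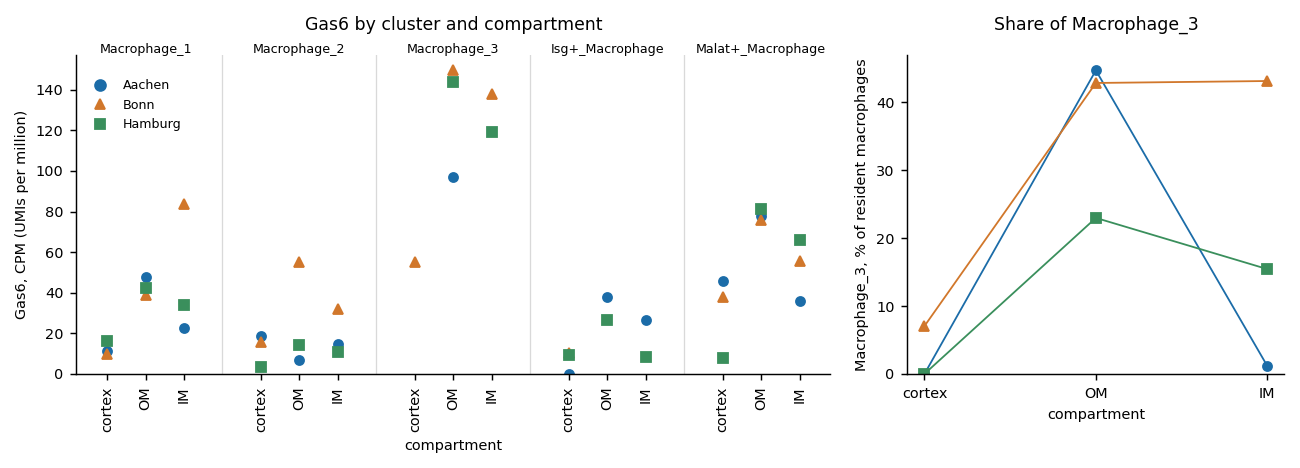
Left, Gas6 level (CPM, y axis) by cluster and compartment, a point per library with at least 20 cells of the cluster. Right, Macrophage_3 as a share of resident macrophages (%). Gas6 in Macrophage_1 was higher in OM and IM than in cortex at each facility, from few UMIs. The Bonn cortex held 24 cells of Macrophage_1, and at Aachen the cluster had 39 Gas6 UMIs over all compartments. Macrophage_3 held 0 to 7.05% of the cortical and 23.0 to 44.7% of the OM macrophages.

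The share of cells with a Gas6 UMI was lowest in the cortex at each facility after thinning to 500 UMIs, but it rests on few cells. In cortex, OM and IM these were 2, 52 and 6 cells at Aachen, 6, 5 and 32 at Bonn, and 2, 10 and 8 at Hamburg. The share was 0.413% in cortex, 2.94% in OM and 1.05% in IM at Aachen, 1.11%, 2.98% and 4.98% at Bonn, and 0.862%, 2.07% and 3.09% at Hamburg. The Bonn cortex thus lay above the Aachen IM. Without thinning it was between 1.82 and 8.35% in cortex and between 2.18 and 36.5% in medulla. Markers of cells other than leukocytes were low throughout the resident macrophages. The endothelial markers summed to 0.183 to 0.409 UMIs per 10000 in cortex and 0.0220 to 0.398 in medulla, and of 5 markers Pecam1 and Kdr had more than 9 UMIs. The pericyte and fibroblast markers were at 0.174 or less in every library, and at 0 in all Aachen and Hamburg libraries. Proximal tubule markers were at most 0.198 in cortex and reached 1.61 in the Bonn IM, the library with the highest raw CPM of Gas6. Their part in the result was not tested.

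Pros1 was higher in OM than in cortex at each facility, while IM lay on both sides of cortex. Its levels were 14.5, 15.6 and 11.8 CPM in cortex, OM and IM at Aachen, 32.6, 75.7 and 30.7 at Bonn and 19.8, 27.2 and 34.3 at Hamburg. The compartments overlapped across facilities. The fitted difference between medulla and cortex was 0.46 ± 0.25 on the log2 scale, at 0.74 ± 0.28 for OM and 0.19 ± 0.29 for IM. Axl gave 184.8, 212.3 and 191.6 CPM at Aachen, 293.4, 321.6 and 256.7 at Bonn and 272.2, 303.5 and 288.5 at Hamburg. OM was the highest at each facility. The fitted difference between medulla and cortex was 0.07 ± 0.12, at 0.16 ± 0.13 for OM and -0.01 ± 0.13 for IM. The 95% interval of the Axl difference between medulla and cortex ran from -0.17 to 0.32. After thinning the Axl difference was -0.16, so its direction was not settled.

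Mertk had too few UMIs to pass the filter on low counts. Its levels were 0, 3.90 and 4.42 CPM at Aachen, 12.2, 18.7 and 9.35 at Bonn and 8.26, 8.98 and 5.01 at Hamburg, which gave no common order of the compartments. A count of 0 in the Aachen cortex allows up to 3.96 CPM. A fit without the filter, an alternative chosen after the data were seen, put the difference at 0.18 ± 0.36. Mfge8 was at 15.8, 9.48 and 7.37 CPM at Aachen, 15.9, 20.9 and 18.4 at Bonn and 6.18, 11.4 and 19.0 at Hamburg, falling from cortex to medulla at the first facility and the reverse at the last. Its fitted difference was 0.24 ± 0.30.

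The 2 parts of the medulla did not differ detectably for these genes. Between OM and IM in resident macrophages the log2 fold change of Gas6 was 0.41 ± 0.24 (95% interval -0.10 to 0.93), of Pros1 0.55 ± 0.28 (-0.04 to 1.14), of Axl 0.17 ± 0.13 (-0.11 to 0.45) and of Mfge8 -0.19 ± 0.35 (-0.93 to 0.55). None of the 4 members that passed the filter was called by edgeR (adjusted p = 1 for each), none was under 0.05 unadjusted (0.0657 for Pros1 was the lowest), and DESeq2 called none. Over all genes 0% were called in either direction, and 260 of 8228 had an unadjusted p under 0.05. The Gas6 values were higher in OM at Aachen and Hamburg and about equal at Bonn. With Macrophage_3 left out the Gas6 value was -0.02, so its direction was not settled.

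Outside the resident macrophages few members had enough UMIs for a test of medulla against cortex. In cDC, Axl passed the filter and differed by -0.16 ± 0.32 (edgeR adjusted p = 0.915), where 1.01% of 6757 genes were called higher and 0.873% lower. Its direction turned to 0.78 without the Bonn libraries. In monocytes Axl differed by -0.39 ± 0.34 (edgeR adjusted p = 0.999), against 0.0917% of genes called higher and 0.220% lower. In T cells it differed by 0.21 ± 0.41 (edgeR adjusted p = 1), against 0% and 0.0117%, and without Aachen by -0.44. In B cells Mfge8 was the member tested, at 0.10 ± 0.44 (edgeR adjusted p = 1), against 0.0118% and 0.0235%. DESeq2 called none of these either, and the unadjusted p-values of edgeR were 0.626, 0.245, 0.608 and 0.832. Gas6 had 8.92 UMIs in cDC, 14.6 in monocytes, 10.9 in T cells and 12.1 in B cells. It did not pass the filter in any of them, so a difference like that of the macrophages was not detectable there. NK cells were not tested, because the Bonn OM held 19 of them. They had 3.57 Gas6 UMIs in all. Mfge8 was at 8.88 to 31.4 CPM in their 9 libraries, from few UMIs. The highest value came from 2 UMIs in the 19 cells of the Bonn OM, and that of the Aachen OM from 1 UMI.

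Cells with a Gas6 UMI more often had an Axl UMI, and they were also deeper. Of the 575 resident macrophages with a Gas6 UMI, 59.5% also had an Axl UMI, against 35.9% of the remaining cells, but the former held a median of 3816 UMIs and the latter 1372. Mertk was in 7.13% against 1.61%, and 98 cells had both Gas6 and Pros1. The part of depth in these shares was not tested.

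The other genes of the uptake pathway were taken from 8 lists of 89 genes, of which 66 passed the filter in resident macrophages. Between medulla and cortex 3 were called higher and 1 lower, against 0.644% and 0.583% of all genes tested. The median log2 fold change over the 66 genes was 0.06, beside 0.01 for all genes. An unadjusted p under 0.05 was found for 12 of the 66 and for 826 of the 8228, and DESeq2 called 2 of the 66, Stab1 and Trem2. The lists were written with earlier results of these cells known, and Stab1 and Trem2 were already known to differ, so these counts are no independent evidence. Between OM and IM none of the 66 was called by edgeR or DESeq2, and 1 had an unadjusted p under 0.05.

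Of the other engulfment receptors, 21 were listed and 10 measured, with 2 higher, 1 lower and 7 not called. Stab1, a scavenger receptor that binds phosphatidylserine, was at 63.4, 202.9 and 100.2 CPM in cortex, OM and IM at Aachen, 116.7, 271.1 and 282.1 at Bonn and 36.5, 133.4 and 107.2 at Hamburg. It was higher in medulla by 1.40 ± 0.18 (edgeR adjusted p = 0.00597), with the medullary values above the cortical one at each facility. Trem2, a lipid-sensing receptor that binds apoptotic cells, was at 29.0, 129.3 and 50.1 CPM at Aachen, 26.5, 75.7 and 60.1 at Bonn and 17.7, 58.0 and 44.3 at Hamburg, a difference of 1.50 ± 0.20 (edgeR adjusted p = 0.00597), and all 6 medullary values lay above the 3 cortical ones. Cd300a, an inhibitory receptor for phosphatidylserine, was lower in medulla, with a log2 fold change of -0.90 ± 0.20 (edgeR adjusted p = 0.0368, DESeq2 adjusted p = 0.0992). Its cortical values of 117.5, 208.2 and 163.7 CPM lay above the 6 medullary ones, which were between 38.5 and 109.3. Cd14 (0.82 ± 0.20, edgeR adjusted p = 0.0636) and Scarb1 (-0.85 ± 0.21, edgeR adjusted p = 0.0761) did not pass. Timd4, Stab2, Marco and Havcr1 were among the 11 receptors with too few UMIs.

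Among the genes of the sterol response, by which a phagocyte exports the cholesterol of its meal, 1 of 8 was called. Abca1, the cholesterol exporter, was 1.31 ± 0.24 higher in medulla (edgeR adjusted p = 0.0174, DESeq2 adjusted p = 0.0615), at 11.9, 24.0 and 7.37 CPM in cortex, OM and IM at Aachen, 38.3, 83.4 and 101.2 at Bonn and 15.5, 45.2 and 49.1 at Hamburg. The Aachen IM lay below the Aachen cortex, and the other medullary values above the cortex of their facility. Abcg1, its partner in export, differed by 0.09 ± 0.15, and the nuclear receptor gene Pparg by -0.36 ± 0.23, neither of which passed.

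No gene of the remaining lists passed. The 3 genes of the vitamin K cycle, which prepares both TAM ligands, were Ggcx, Vkorc1 and Vkorc1l1, and Vkorc1 differed by 0.28 ± 0.13 (edgeR adjusted p = 0.515). The complement bridging genes C1qa, C1qb and C1qc differed by -0.02 to 0.16 and each had an SE of 0.10. In the engulfment machinery all 11 measured genes, with Elmo1, Dock1, Rac1 and Vav1 among them, lay between -0.26 and 0.55, and in phagosome maturation and digestion all 13 lay between -0.37 and 0.30. Socs3, a feedback inhibitor of cytokine signals, differed by 1.49 ± 0.51 (edgeR adjusted p = 0.24), from 0.38 at Aachen to 2.34 at Bonn. The integrin genes Itgav and Itgb5, which serve Mfge8, differed by -0.41 ± 0.14 and -0.29 ± 0.13 and did not pass (edgeR adjusted p = 0.254 and 0.444).

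**Figure D5:**
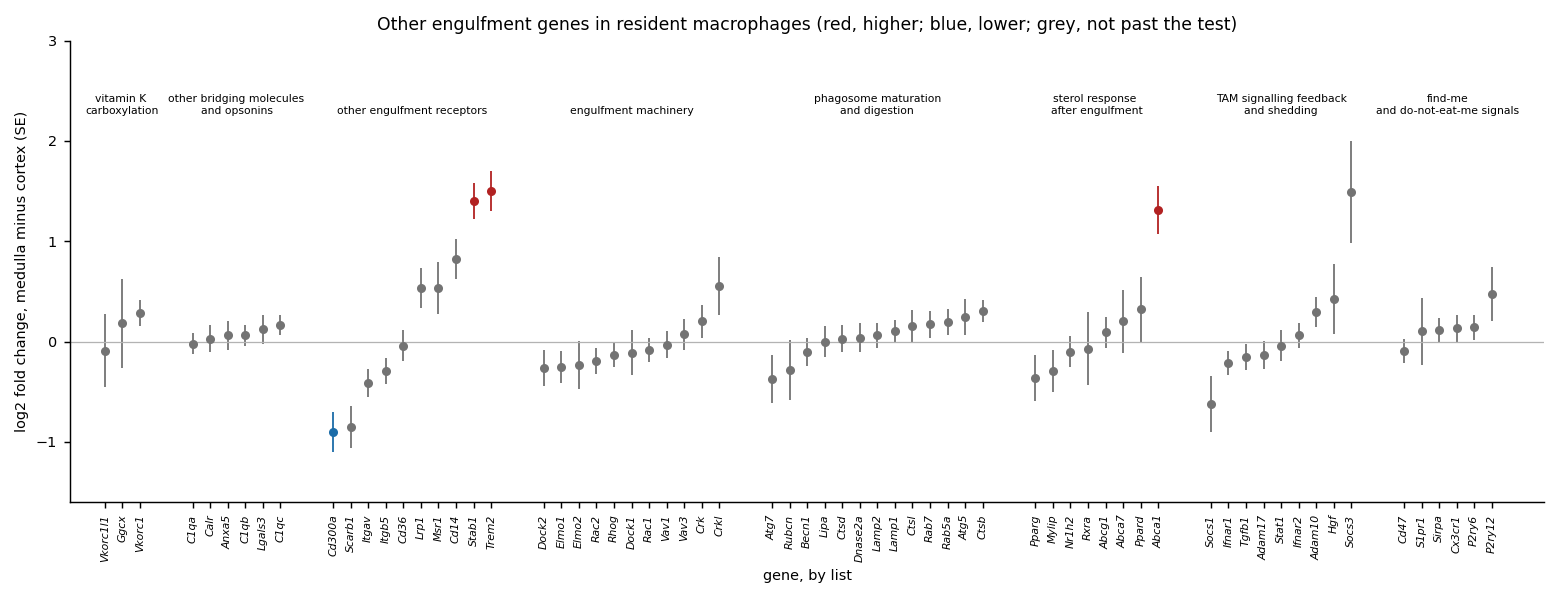
Log2 fold change of medulla against cortex (y axis, bars are the SE) for the 66 measured genes of the 8 lists in resident macrophages. Stab1, Trem2 and Abca1 are the red points, between 1.31 and 1.50, Cd300a is the blue one at -0.90, and the other 62 genes did not pass the test.

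The calls among the lists depended on which cells and libraries were used. None of the 4 genes was called without Macrophage_3 (adjusted p of 0.0702 for Trem2, 0.0783 for Stab1, 0.14 for Cd300a and 0.208 for Abca1 by edgeR), although each kept its direction. Like Gas6, Stab1 (294 ± 85.1 CPM), Trem2 (117 ± 44.8) and Abca1 (82.4 ± 56.9) had their highest mean in Macrophage_3 among the 4 resident clusters, while Cd300a was highest in Macrophage_2 (169 ± 50.1) and higher still in Monocyte (348 ± 80.2). Monocyte markers in the resident macrophages were at 1.53, 6.05 and 2.59 UMIs per 10000 in the cortex of Aachen, Bonn and Hamburg and at 0.440 to 2.80 in medulla, and their part in the Cd300a difference was not tested. Without Hamburg none was called, without Bonn Stab1 and Trem2 remained, and without the facility block none was called.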

How the data were processed

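Per the labels and the study's methods, the authors aligned droplet reads to mm10 with Cell Ranger, removed cells outside 200 to 4000 detected genes or above 20% mitochondrial reads, and clustered them with Seurat 4.0. The deposited table holds estimated counts per cell and gene, whole in Aachen and Bonn and mostly not whole in Hamburg, with the authors' cluster, compartment and facility. Columns of no sample of the series numbered 0.

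Counts were summed per class and library and rounded. The numbered T cell, B cell, NK cell and cDC clusters were each joined into a class. edgeR 4.0.16 (R 4.3.3; TMM, filterByExpr, quasi-likelihood test, facility as block, Benjamini-Hochberg adjustment over all genes tested, threshold 0.05) compared the mean of OM and IM with cortex, and OM with IM. DESeq2 1.42.0 was an alternative. The script was tested on simulated data. Levels are raw CPM, from clusters of at least 20 cells at a facility, and fold changes use TMM. Intervals of shares are Wilson 95%, and a floor is 3 counts. Doublets were not removed, and macrophages with at least 2 lymphocyte UMIs were left out in an alternative.

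The 6 genes were named in every result, as were pathway genes past the threshold and the 5 genes most similar to each member. Other pathway genes named in the text were picked after their values were seen. The members and lists were chosen with earlier results of these data known. Facilities paired the libraries: deviations from the compartment means correlated at 0.83 to 0.92 over 8228 genes for the 9 pairs of 1 facility, and at -0.80 to 0.48 for the 18 pairs between facilities.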

Additional observations from a re-analysis of the deposited data

Results flagged for a closer look

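The per-facility differences of Axl between medulla and cortex had opposite signs in resident macrophages and monocytes. The mean log2 difference was 0.079 in resident macrophages (0.141 in Aachen, 0.017 in Bonn and 0.078 in Hamburg) and -0.508 in monocytes (-1.045, -0.177 and -0.303). The difference between the classes was not tested, and the sign in resident macrophages was not settled: with equal weight for the clusters the Bonn value was -0.100, and after thinning the fitted difference was -0.156. The monocyte values rest on few UMIs, between 1 and 61 in a library.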

How the results depend on the processing

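The number of pathway genes called between medulla and cortex, 4 in the report, was 7 with no filter on low counts, 1 after thinning to 500 UMIs per cell, 2 by DESeq2, 0 without Macrophage_3 and 0 without the facility block, and it ranged from 0 to 8 when a facility or library was left out (8 without Aachen, 7 without the Aachen IM, 2 without Bonn, 0 without Hamburg, and 2 without the Bonn cortex, the Hamburg cortex or the Hamburg OM). Between OM and IM it was 1 with no filter and 0 in the report. The Gas6 difference between medulla and cortex lay between 1.786 and 2.520 when a facility or library was left out, and was 2.103 without the block. The Axl difference was -0.156 after thinning. Between OM and IM, Gas6 turned to -0.022 without Macrophage_3, Pros1 ranged from -0.107 (without Bonn) to 0.970 (without Hamburg) and Mfge8 from -0.391 (without Bonn) to 0.170 (without the Hamburg IM; 0.065 without Hamburg). Axl in cDC turned to 0.035 without the block, 0.044 by DESeq2 and ranged from -0.319 (without Aachen) to 0.779 (without Bonn), and in T cells from -0.435 (without Aachen) to 0.708 (without Hamburg). The cause of these changes was not tested. The mean over clusters with equal weight used 3 of the 4 clusters, since Macrophage_3 was missing from libraries of the cortex. It used raw CPM with no lower limit on cells, and Isg+_Macrophage at Bonn held 12 cells in OM and 13 in IM. The values given beside it hold all 4 clusters and use TMM, so the weights are not the only difference. Equal weight gave a mean difference over facilities of 1.548 for Gas6 (1.289 at Aachen, 2.226 at Bonn and 1.128 at Hamburg) beside 1.911. It gave 0.034 for Pros1 beside 0.358 (-1.328 at Aachen), 0.055 for Axl beside 0.079 (-0.100 at Bonn) and -0.083 for Mfge8 beside 0.184. Tests in NK cells and alternatives for the differences of Mertk and Tyro3 were not run.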

Other observations

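A small cluster that the authors left undefined held 69 cells, 13 in Aachen, 43 in Bonn and 13 in Hamburg, with 2, 26 and 0 UMIs of Gas6. Its proximal tubule markers summed to 129.4 per 10000 UMIs, and its resident macrophage markers to 3.79. Mertk was at 40.8 CPM in Malat+_T_cell at Aachen and at 0 at the other facilities, from 2 UMIs in all.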
